A study of Mus musculus with 5 samples.

Results

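Bivalent chromatin carries an activating and a repressive histone mark at the same place. H3K4me3 is written at promoters, above all those rich in CpG, by SET1 and MLL enzymes. H3K27me3 is written by Polycomb repressive complex 2. In pluripotent cells the combination is known from the promoters of many developmental regulators that are silent but can be switched on or off as cells choose a lineage. Some bivalent peaks lie inside long Polycomb domains, such as the Hox clusters, while others lie outside them. Those outside, called isolated, are described here.

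The peaks came from the mouse epiblast stem cell line EpiSC9, which represents the primed state of pluripotency. The cells were grown with FGF2 on irradiated mouse embryonic fibroblasts. Every library of the series shares this line and culture, and the groups differ only in the antibody used for chromatin immunoprecipitation. The marks were H3K4me3, H3K27me3, H3K27ac (on active promoters and enhancers) and H3K4me1 (on enhancers and beside promoters), with 1 library each, and an input library was not analysed here. Without replicates, nothing below has a test. The 95% Wilson intervals in brackets reflect the number of peaks and no other error. They treat peaks as independent, which neighbouring peaks are not, so they may be too narrow. Whether intervals overlap or lie apart is given below as a description and decides nothing.

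The members were chosen by measured values, namely the overlaps and widths of called peaks. An isolated bivalent peak was a row of the H3K4me3 list on chromosomes 1 to 19 that overlapped H3K27me3 and no H3K27ac by at least 1 bp. The 500 widest H3K4me3 peaks were left out, and so was any peak in a long H3K27me3 domain. Such a domain was a run of H3K27me3 peaks with gaps of 5 kb or less and a summed length of 10 kb or more. The name bivalent stands here for overlapping peaks of separate libraries. Such overlap cannot show both marks on the same nucleosome, allele or cell. Of 27970 H3K4me3 peaks, 4689 overlapped H3K27me3 and 258 of these also overlapped H3K27ac, which left 4431 bivalent peaks. Of the bivalent peaks, 111 were among the widest and 1485 in long domains, with 22 counted under both. The remaining 2857 are 10.2% of the H3K4me3 peaks (9.87 to 10.6) and 64.5% of the bivalent ones (63.1 to 65.9).

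They are set below beside 3 other classes, each likewise without the 500 widest peaks. The classes also leave out 30 peaks of a run on chromosome 11, of which none overlapped H3K4me1. The classes are 1463 bivalent peaks in long domains, 13205 peaks with H3K27ac only and 9707 with no H3K27 mark. The rule used the H3K4me3, H3K27me3 and H3K27ac lists, so widths, scores and overlaps of those marks are descriptions of what was chosen. H3K4me1 was not used by the rule.

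By the median, the isolated bivalent peaks were wider and scored higher than all autosomal H3K4me3 peaks pooled. Their widths ran from 150 to 3388 bp with a median of 1387 bp (interquartile range 901 to 1880). The median was 987.5 bp over all autosomal H3K4me3 peaks, 761 bp in long domains, 1280 bp with H3K27ac only and 495 bp with no H3K27 mark. The authors' score, used only within a list, had a median of 1407.84 in isolated bivalent peaks. It was 909.615 over all autosomal H3K4me3 peaks, 303.97 for bivalent peaks in long domains, 2585.96 with H3K27ac only and 178.71 with no H3K27 mark. A score of 3100 or more, where many scores stop, was reached by 393 isolated bivalent peaks (13.8%), against 26.1% of all autosomal H3K4me3 peaks and 44.4% of those with H3K27ac only. By the median, the isolated bivalent peaks thus scored above the bivalent peaks of long domains and below the acetylated peaks. They were isolated from long domains but not always from other H3K4me3. Another H3K4me3 peak lay within 1 kb of 1170 (41%, 39.2 to 42.8), against 46.9% of all autosomal H3K4me3 peaks. The share was 70.9% in long domains, 52.8% with H3K27ac only and 36.9% with no H3K27 mark.

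The H3K27me3 on these peaks was modest by comparison. The highest-scoring H3K27me3 peak on each had a median score of 173.09 (interquartile range 83.96 to 401.53, highest 3040.59), against 1593.03 for bivalent peaks in long domains, which the length limit sets apart by construction. A single H3K27me3 peak touched 1823 members (63.8%), 2 touched 819 and 3 or more touched 215. Together they covered a median of 46.8% of the H3K4me3 peak, with an interquartile range of 24.6 to 75.6%, against 100% in long domains. H3K27me3 covered the whole H3K4me3 peak in 325 members (11.4%, 10.3 to 12.6) and less than 10% of it in 201 (7.04%).

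H3K27me3 lay more often beside the centre of the H3K4me3 peak than on it. At the centre, 40.3% of isolated bivalent peaks were covered by H3K27me3. The share was highest 0.7 kb away, at 54.3% as the mean of both sides, was 26.5% at 2 kb and 6.88% at 5 kb. In long domains the dip was shallow over all widths pooled, with 85.3% at the centre and a highest share of 88.7%, also at 0.7 kb. There the mark still covered 67.4% of positions at 5 kb. The flanked form, with H3K27me3 on both edges and none at the centre, was found in 408 isolated bivalent peaks (14.3%, 13 to 15.6). Its share in long domains was 8% (6.71 to 9.5). Among isolated bivalent peaks, H3K27me3 more often sat on a single edge and left the centre free, in 1082 members (37.9%, 36.1 to 39.7). It covered both edges and the centre in 556 members (19.5%), against 68.3% of the peaks in long domains.

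**Figure D1:**
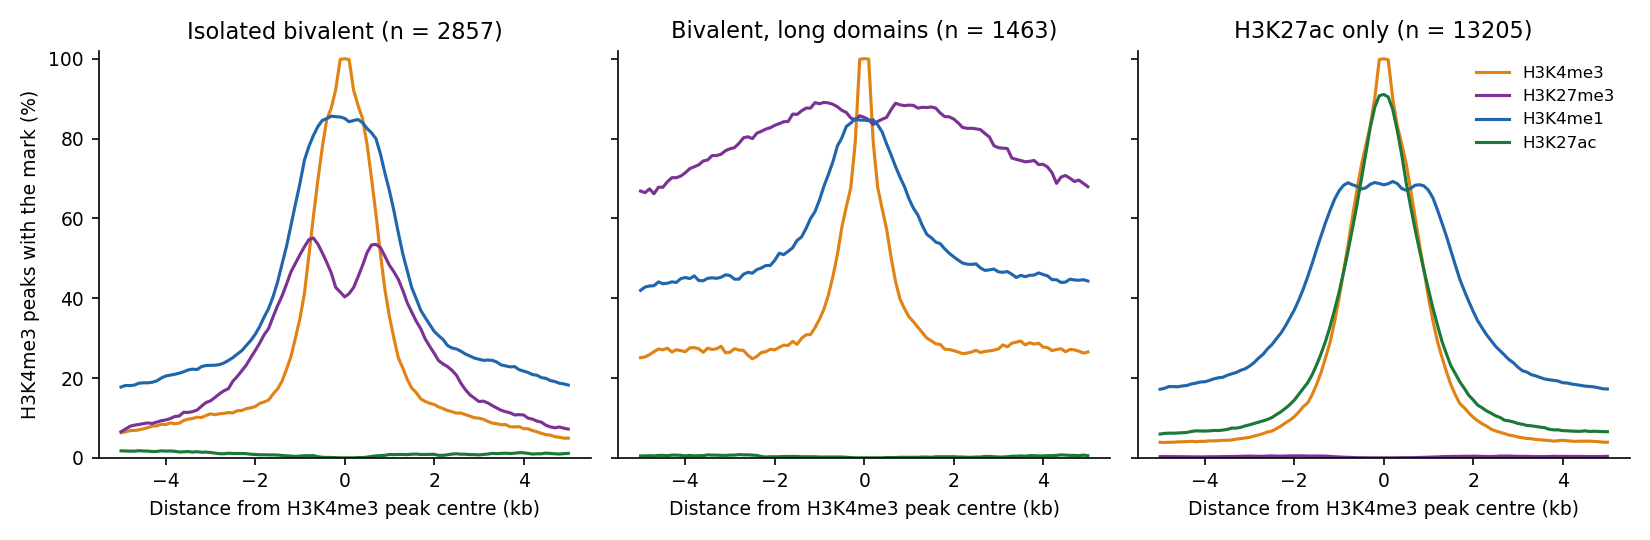
Share of H3K4me3 peaks (%) covered by a peak of each mark, against the distance in kb from the centre of the H3K4me3 peak, in steps of 100 bp, for isolated bivalent peaks, bivalent peaks in long domains and peaks with H3K27ac only. H3K27me3 has a maximum on each side of the centre at isolated bivalent peaks (40.3% at the centre, 54.3% at 0.7 kb), while H3K4me1 is highest near the centre (85.1% at the centre) and is flat there at peaks with H3K27ac only (68.4%).

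The central gap was less frequent in peaks under 1 kb than in wider ones. Among the 854 isolated bivalent peaks under 1 kb, H3K27me3 covered the centre of 62.9% (59.6 to 66.1). Among the 1398 of 1 to 2 kb it covered the centre of 30.3% (28 to 32.8). Among the 605 of 2 kb or more it covered the centre of 32.2% (28.6 to 36.1) and a mean of 57.1% over both edges. The flanked form made up 4.8% of those under 1 kb, 17.7% from 1 to 2 kb and 19.8% at 2 kb or more. In long domains it made up 1.8%, 16.4% (13.2 to 20.1) and 21.8% (15.4 to 29.8) in the same order. It was thus not particular to isolated bivalent peaks. At 2 kb or more, H3K27me3 in long domains covered a mean of 89.9% over both edges and 74.2% at the centre. Every member touches H3K27me3 by the rule, and a stretch that touches a narrow peak reaches its centre more easily. A peak caller also joins or splits enriched stretches by its own settings. The parts that width and splitting play in these gaps were not tested.

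**Figure D2:**
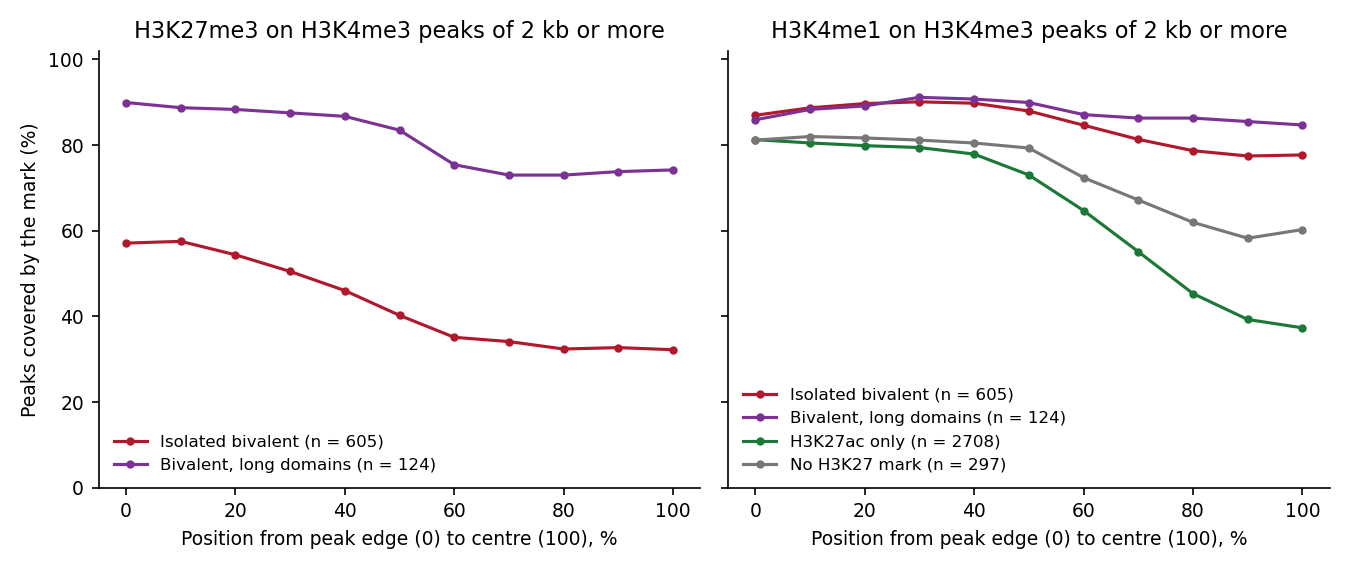
Share of H3K4me3 peaks of 2 kb or more (%) covered by H3K27me3 (left) and by H3K4me1 (right) against the position from the peak's edge (0) to its centre (100, in % of the way), averaged over both sides. At isolated bivalent peaks H3K27me3 is at 57.1% on the edges and 32.2% at the centre, and H3K4me1 is at 86.9% and 77.7%, against 81.3% and 37.3% for peaks with H3K27ac only.

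H3K4me1, the mark that the rule did not use, was present on nearly every isolated bivalent peak. It overlapped 2700 of the 2857 (94.5%, 93.6 to 95.3), against 85.4% of all autosomal H3K4me3 peaks. The share was 89.9% (88.2 to 91.3) for bivalent peaks in long domains, 90.5% (90 to 91) with H3K27ac only and 74.4% (73.6 to 75.3) with no H3K27 mark. These shares varied with width, and wide peaks meet more peaks of any kind. In every width bin the interval of bivalent peaks in long domains, the narrower class, overlapped that of isolated bivalent peaks. Theirs was 82.6% (79 to 85.7) under 500 bp and 95.8% (92.9 to 97.6) from 1000 to 1500 bp. Under 500 bp, H3K4me1 overlapped 86% of isolated bivalent peaks (82.1 to 89.1), 80.7% of those with H3K27ac only (79 to 82.3) and 59.7% of those with no H3K27 mark. From 1000 to 1500 bp, the shares were 94.2% (92.3 to 95.7), 92.8% (91.8 to 93.7) and 94% (92.6 to 95.2) in the same order, and these intervals overlap. The intervals of isolated bivalent peaks and peaks with H3K27ac only lay apart in the other bins above 500 bp, at 91.8% (89 to 93.9) against 84.8% (83.4 to 86.1) from 500 to 1000 bp, 97.3% (95.8 to 98.3) against 94.8% (93.9 to 95.6) from 1500 to 2000 bp and 99.3% (98.3 to 99.7) against 97.5% (96.8 to 98) at 2 kb or more.

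Isolated bivalent peaks and peaks with H3K27ac only also differed in where H3K4me1 lay. An isolated bivalent peak lay wholly inside H3K4me1 in 1710 cases (59.9%, 58 to 61.6), against 46.6% of all autosomal H3K4me3 peaks. For peaks with H3K27ac only, the share was 34% (33.2 to 34.8). It was 69.9% (67.5 to 72.2) for bivalent peaks in long domains and 58.8% (57.8 to 59.7) with no H3K27 mark, where the interval overlaps that of the isolated bivalent peaks. H3K4me1 ran past both edges of 2169 isolated bivalent peaks (75.9%, 74.3 to 77.5), against 62.6% of all H3K4me3 peaks. The share was 75.9% (73.7 to 78.1) for bivalent peaks in long domains, 57% with H3K27ac only and 63.8% with no H3K27 mark. The centre itself was covered in 85.1% of isolated bivalent peaks and 68.4% of those with H3K27ac only. At widths of 2 kb or more, the centre was covered in 77.7% of isolated bivalent peaks, 84.7% of bivalent peaks in long domains, 37.3% of those with H3K27ac only and 60.3% of those with no H3K27 mark. Wide acetylated peaks thus had H3K4me1 on their edges more often than in the middle (81.3% against 37.3%), a step that was smaller at isolated bivalent peaks (86.9% against 77.7%).

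This contrast was followed over width and score, because the share wholly inside H3K4me1 varied with both. Under 500 bp, isolated bivalent peaks lay wholly inside H3K4me1 in 81% of cases (76.7 to 84.6), against 74.8% (72.9 to 76.5) with H3K27ac only. From 1000 to 1500 bp the shares were 64.1% (60.6 to 67.4) and 26.3% (24.8 to 27.9). At 2 kb or more they were 34% (30.4 to 37.9) and 5.58% (4.77 to 6.5). Bivalent peaks in long domains gave 70.5% (65 to 75.5) from 1000 to 1500 bp and 49.2% (40.6 to 57.9) at 2 kb or more. Peaks with no H3K27 mark gave 59.1% (56.4 to 61.6) and 19.5% (15.4 to 24.4). Shares above those of peaks with H3K27ac only were thus not particular to isolated bivalent peaks in these bins. By score, the shares below 300 were 80.7% (77.2 to 83.7) for isolated bivalent peaks and 78.8% (77.2 to 80.3) with H3K27ac only, and their intervals overlap. From 1000 to 2000 they were 63.2% (59.7 to 66.6) and 40.6% (38.1 to 43.1), and at 3100 or more 22.6% (18.8 to 27) and 6.2% (5.61 to 6.84). Scores of 1000 to 2000 gave 59.2% (52.4 to 65.5) in long domains and 57.1% (54 to 60.2) with no H3K27 mark. Scores of 3100 or more gave 30.8% of 13 and 16.5% (13.4 to 20.2).

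With both width and score held, the gap between isolated bivalent peaks and those with H3K27ac only varied among cells. In some small cells isolated bivalent peaks had the lower share wholly inside H3K4me1, with intervals that overlap. At 1500 to 2000 bp and scores of 300 to 1000 it was 62.2% of 45 against 79.4% of 34. At 2 kb or more and scores of 1000 to 2000 it was 58.2% of 79 against 61.8% of 34. At 1000 to 1500 bp and scores below 300 it was 50% of 10 against 91.7% of 12. Among peaks of 1000 to 1500 bp scoring 300 to 1000, 74.8% of 266 isolated bivalent peaks lay wholly inside H3K4me1, against 73.1% of 323 with H3K27ac only (69.3 to 79.7 against 68 to 77.6). Among those of 1500 to 2000 bp scoring 1000 to 2000, it was 66.8% of 247 (60.7 to 72.4) against 60.6% of 165 (53 to 67.7), and in both cells the intervals overlap. They did not overlap under 1 kb at scores of 300 to 1000, with 79.4% of 243 (73.9 to 84) against 57.6% of 1288 (54.9 to 60.3), nor at 1000 to 1500 bp and scores of 1000 to 2000, with 61.5% of 379 (56.5 to 66.2) against 41.7% of 648 (37.9 to 45.5). Of the peaks of 2 kb or more scoring 3100 or more, 66 of 304 isolated bivalent peaks (21.7%, 17.4 to 26.7) and 93 of 2549 with H3K27ac only (3.65%, 2.99 to 4.45) lay wholly inside H3K4me1. Peaks with no H3K27 mark in that cell gave 15.1% (11 to 20.5). Since scores stop near 3100, H3K4me3 strength may still differ within it.

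**Figure D3:**
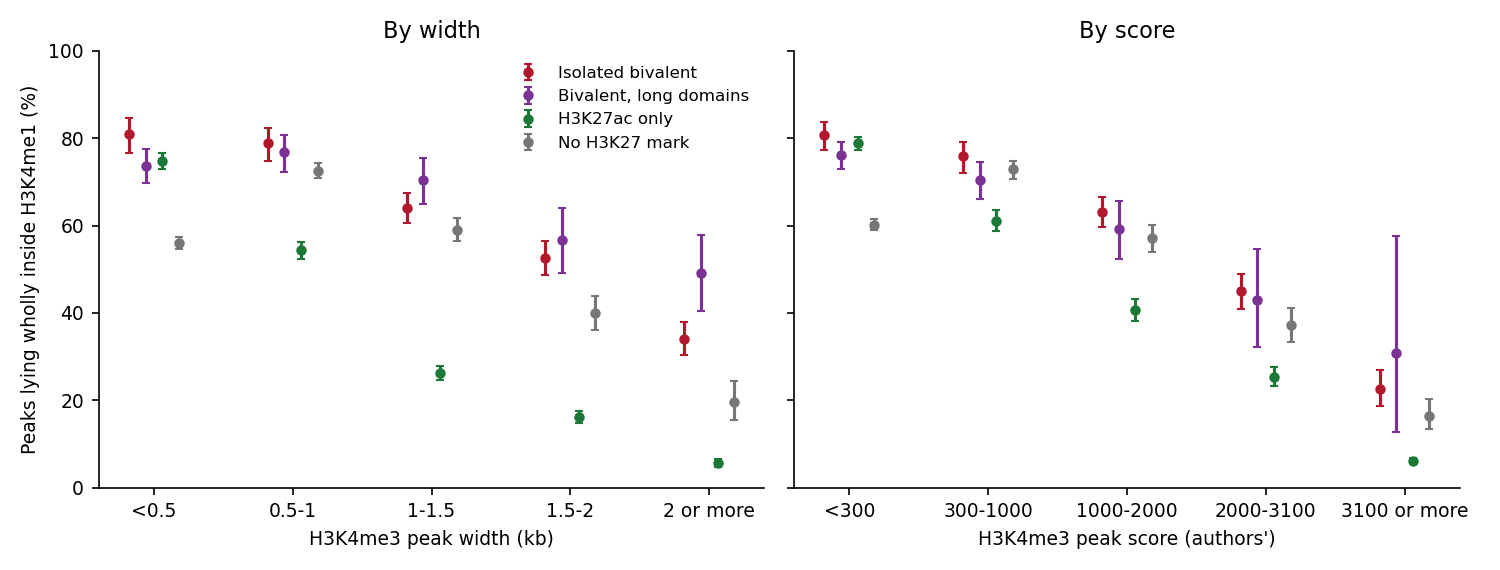
Share of H3K4me3 peaks lying wholly inside H3K4me1 (%) by H3K4me3 width in kb (left) and by the authors' H3K4me3 score (right), for the 4 classes; points are shares and bars 95% Wilson intervals. From 1 to 1.5 kb, isolated bivalent peaks stand at 64.1% and peaks with H3K27ac only at 26.3%, whereas below a score of 300 they stand at 80.7% and 78.8%.

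Among the isolated bivalent peaks, the reach of H3K4me1 varied with the strength of H3K27me3. With members ranked by H3K27me3 score and cut into 4 bins of nearly equal size, 93.1% overlapped H3K4me1 (91.1 to 94.8) and 71.7% had it past both edges in the lowest bin. In the highest bin, these were 95.9% (94.2 to 97.2) and 82.4%, and the intervals of the overlap share themselves overlap between the bins. Among members under the median width, the share wholly inside H3K4me1 was 70.2% (65.6 to 74.3) in the lowest bin and 80.8% (76.3 to 84.7) in the highest. At or above the median width the shares were 43.6% (38.1 to 49.3) and 48.4% (43.4 to 53.4), with intervals that overlap. The longer sides of the marks coincided little more often than not: of 2700 members with H3K4me1, both marks reached farther on the same side in 1444 (53.5%, 51.6 to 55.4). H3K4me1 reached a median of 844 bp past the edge on its longer side and 290.5 bp on its shorter side.

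The 157 isolated bivalent peaks without H3K4me1 were the smaller and weaker ones. Their median width was 850 bp and median H3K4me3 score 333.36, against 1420.5 bp and 1475.39 for the 2700 with H3K4me1. Their H3K27me3 was of similar strength, with a median score of 142.25 against 175.775. They lay farther from acetylation, at a median of 70.1 kb from H3K27ac, against 36.1 kb. An H3K4me1 peak lay within 1 kb of 38 of them. A run of 8 of these peaks filled chromosome 9 at 2999951 to 3038483 with H3K4me3 scores of 51.35 to 175.49. Without that run, H3K4me1 overlapped 94.8% of isolated bivalent peaks, and on chromosome 9 it overlapped 91.1% of the other 158.

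Within the chosen members, the scores of the paired marks had almost no rank correlation. Spearman's rho between the H3K4me3 score and the highest H3K27me3 score was -0.04 across 2857 isolated bivalent peaks, which share libraries and in part domains. The rule left out long domains and the widest peaks, which limits both scores, so this value describes the selection only. Over the 4 bins of rising H3K27me3 score, the median H3K4me3 score was 1253.15, 1656.03, 1571.09 and 1096.98. Width and score of H3K4me3 had a rho of 0.88. Split at the medians of both scores, 691 members were strong in both marks and 690 weak in both. H3K4me1 overlapped 98.1% of those strong in both (96.8 to 98.9) and 90.1% of those weak in both (87.7 to 92.2). It overlapped 97.3% (95.9 to 98.2) of those strong in H3K4me3 only and 92.4% (90.3 to 94.1) of those strong in H3K27me3 only. The share thus varied more with H3K4me3 than with H3K27me3. Median widths were 1988, 900.5, 1745.5 and 915.5 bp in the same order. Members strong in H3K4me3 and weak in H3K27me3, 738 in number, were covered by H3K27me3 over a median of 23.9% of their width. The 738 of the opposite kind were covered over 88.7%.

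The isolated bivalent peaks lay in 2189 H3K27me3 domains, which had a median of 1.5 kb of H3K27me3 (interquartile range 0.791 to 2.85) over a span of 2.47 kb. A single H3K27me3 peak formed 604 of these domains (27.6%). A single member was found in 1758 (80.3%), 2 in 291, 3 in 78 and 4 or more in 62, up to 7. Members of the same domain are not separate examples: of 668 gaps between neighbours in a domain, 407 (60.9%) were 500 bp or less, with a median of 246 bp. Taking the widest member of each domain gave 95.3% with H3K4me1 (94.4 to 96.1) and 53.7% wholly inside it (51.6 to 55.8), at a median width of 1577 bp. An H3K27ac peak touched 38 of the domains.

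Short H3K27me3 domains met H3K4me3 more often the longer they were. Of 2153 autosomal domains with less than 0.5 kb of H3K27me3, 387 (18%) overlapped an H3K4me3 peak and 321 held an isolated bivalent one. The share with H3K4me3 was 74.2% from 0.5 to 1 kb, 94.6% from 1 to 2 kb, 98.1% from 2 to 5 kb and 98.6% from 5 to 10 kb. Longer domains meet more peaks of any kind, and the smallest ones hold the weakest calls.

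Within the isolated bivalent peaks, the H3K27me3 measures varied with domain length while the share overlapping H3K4me1 was nearly flat. The median share of the H3K4me3 peak under H3K27me3 was 19% in domains below 0.5 kb, 37.5% from 1 to 2 kb and 87.1% from 5 to 10 kb. This rise is partly set by the bins. A domain below 0.5 kb cannot cover most of a peak of 1302 bp, the median width there. An overlap of 1 bp or more with H3K4me1 has no such limit. The H3K4me3 peaks were narrower and weaker in the last bin, at a median of 1098.5 bp and a score of 671.015, against 1507 bp and 1611.11 from 2 to 5 kb. In that bin 546 peaks shared 202 domains. H3K4me1 overlapped between 94% and 94.9% of the peaks in all 5 bins, while it ran past both edges of 74.3% below 0.5 kb, 71.5% from 1 to 2 kb and 83% from 5 to 10 kb. The median distance to H3K27ac was 31.6 kb in the lowest bin and 38.5 kb in the highest.

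**Figure D4:**
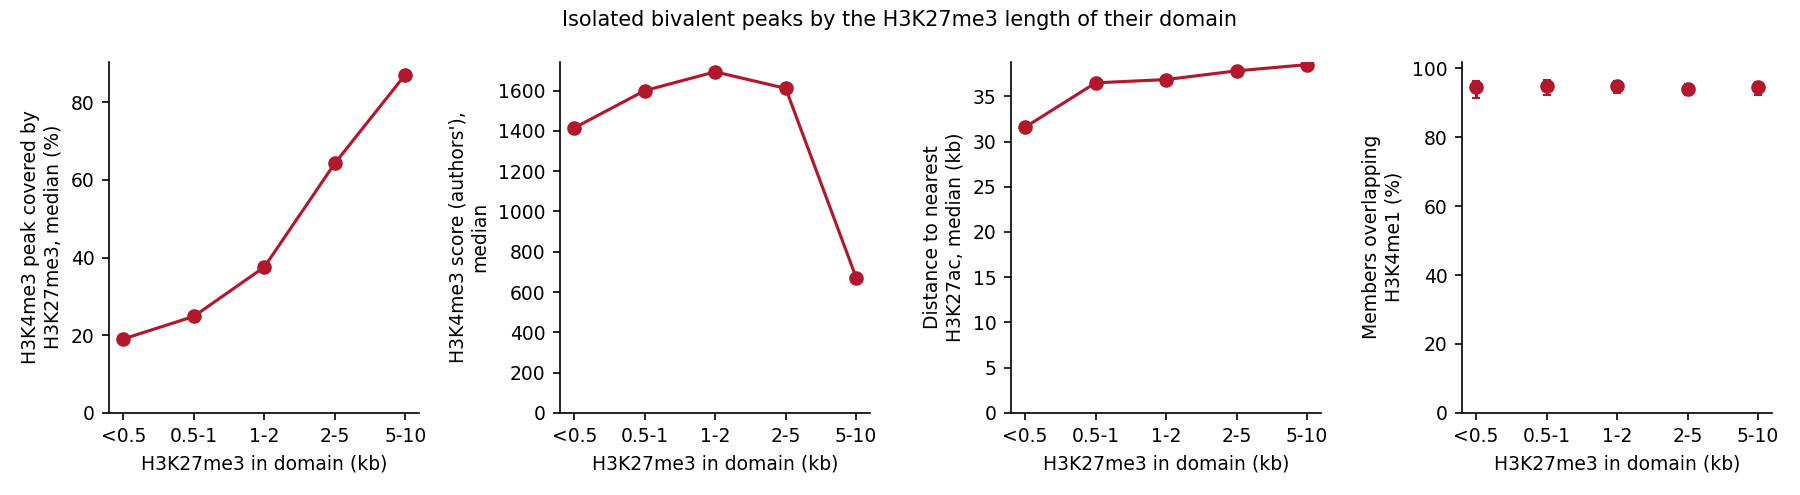
Isolated bivalent peaks by the summed H3K27me3 length of their domain (kb, horizontal axes): median share of the H3K4me3 peak covered by H3K27me3 (%), median H3K4me3 score, median distance to the nearest H3K27ac peak (kb) and share overlapping H3K4me1 (%, bars are 95% Wilson intervals). Coverage is 19% in the lowest bin and 87.1% in the highest, a rise partly set by domain length, which limits coverage. The H3K4me1 share stays between 94% and 94.9%.

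Acetylation was seldom near. The nearest H3K27ac peak was a median of 36.9 kb from an isolated bivalent peak (interquartile range 14.1 to 83), against 63.2 kb in long domains and 20.7 kb for peaks with no H3K27 mark. Within 5 kb lay 304 members (10.6%, 9.56 to 11.8), against 3.9% in long domains and 25.5% with no H3K27 mark; the share was 59.5% over all autosomal H3K4me3 peaks, which include the acetylated ones. Beyond 100 kb lay 590 members (20.7%, 19.2 to 22.2), against 9.4% of all autosomal H3K4me3 peaks, 29.9% in long domains and 16.1% with no H3K27 mark. The rule removed members that touch H3K27ac, so the near end of these distances is partly set by it. The isolated bivalent peaks within 5 kb of H3K27ac overlapped H3K4me1 in 98% of cases (95.8 to 99.1), against 89% (86.2 to 91.3) of those beyond 100 kb, at median widths of 1301 and 1405 bp.

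**Figure D5:**
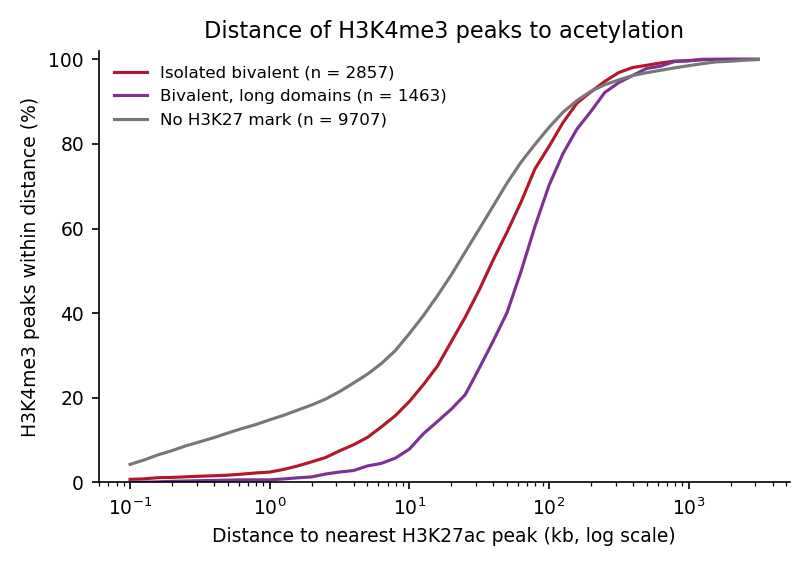
Cumulative share of H3K4me3 peaks (%) whose nearest H3K27ac peak lies within the distance on the horizontal axis (kb, log scale), for isolated bivalent peaks, bivalent peaks in long domains and peaks with no H3K27 mark. The medians are 36.9, 63.2 and 20.7 kb in that order.

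The surroundings held distal H3K4me1 about as often as those of all autosomal H3K4me3 peaks pooled. They held acetylated elements less often than those of acetylated or unmarked peaks. An H3K4me1 peak with no H3K4me3 within 1 kb, a distal element, lay within 50 kb of 2416 isolated bivalent peaks (84.6%, 83.2 to 85.8), against 84.8% of all autosomal H3K4me3 peaks. By class the share was 87.2% (86.7 to 87.8) with H3K27ac only, 81.7% (80.9 to 82.5) with no H3K27 mark and 82.5% (80.5 to 84.4) in long domains. A distal element with H3K27ac lay within 50 kb of 808 (28.3%, 26.7 to 30), against 40.2% of all autosomal H3K4me3 peaks, 48.8% (48 to 49.7) with H3K27ac only, 35.3% (34.4 to 36.3) with no H3K27 mark and 12.2% (10.7 to 14) of bivalent peaks in long domains. Counted over elements, 845 of the 7561 distal elements within 50 kb of an isolated bivalent peak carried H3K27ac (11.2%, 10.5 to 11.9), against 19% near any autosomal H3K4me3 peak. The share was 5.71% (4.22 to 7.68) near bivalent peaks in long domains, 22.2% (21.7 to 22.8) near peaks with H3K27ac only and 16.2% (15.7 to 16.7) near those with no H3K27 mark. The same element can lie near peaks of several classes. H3K27me3 was on 191 of the 7561 (2.53%, 2.2 to 2.9), against 1.02% near any autosomal H3K4me3 peak. It was on 17.3% (14.6 to 20.2) near bivalent peaks in long domains, 0.704% (0.605 to 0.818) near peaks with H3K27ac only and 1.15% near those with no H3K27 mark.

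The share of isolated bivalent peaks varied among chromosomes. They made up 7.8% of the H3K4me3 peaks on chromosome 16 (6.15 to 9.83) and 12.6% on chromosome 19 (10.6 to 14.8), the lowest and the highest, with a median of 9.97% over the 19 autosomes. The share of bivalent peaks that were isolated ran from 46.2% on chromosome 13 to 76% on chromosome 17, with a median of 66%. H3K4me1 overlapped 86.7% of members on chromosome 9, the lowest, and 97.5% on chromosome 11, the highest.

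Single peaks show the range of forms, with all positions on mm9. The most H3K27me3 within an H3K4me3 peak, 2876 bp, was on chromosome 9 at 21791962 to 21795215, a peak of 3254 bp that scored 3100 and lay wholly inside H3K4me1. The next 4, on chromosome 7 at 105982923 to 105986192, chromosome 3 at 101814487 to 101817365 and chromosome 4 at 82182269 to 82185125 and at 153513449 to 153516164, held 2716 to 2822 bp of H3K27me3. The last of them was fully covered by a single H3K27me3 peak with a score of 1390.38. In all 5, H3K4me3 and H3K27me3 were both broad, and H3K4me1 covered 89% or more of the H3K4me3 peak.

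The highest H3K27me3 score, 3040.59, belonged to a domain on chromosome 9 at 58041708 to 58052049 with 9.25 kb of H3K27me3. It held 2 isolated bivalent peaks, at 58048821 to 58050545 with an H3K4me3 score of 710.99 and at 58051249 to 58052634 with a score of 1485.31. The first was covered wholly by H3K27me3 and the second over 57.8%. Both overlapped H3K4me1 with a score of 2380.47, the highest on any member. The other 3 by this ranking shared a domain on chromosome 5 at 140382132 to 140390618, with an H3K27me3 score of 2634.6. Their H3K4me3 scores were 3100, 412.66 and 55.17 over widths of 2732, 1074 and 244 bp, so a strong H3K4me3 peak stood beside 2 weak ones under the same Polycomb signal.

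Among the 5 peaks at the top by H3K4me3 score, H3K27me3 varied widely. The first, on chromosome 1 at 172837316 to 172839200, scored 3227.04, and a single H3K27me3 peak of score 71.57 lay inside it over 24.3% of its width. The next, on chromosome 11 at 97435061 to 97437272, scored 3224.03 and had an H3K27me3 score of 1035 over 37.1%. Those on chromosome 13 at 22105396 to 22107667, chromosome 15 at 76059193 to 76060749 and chromosome 13 at 109004074 to 109005829 had H3K27me3 scores of 122.28, 61.18 and 73.01 over 50.4%, 23.9% and 11.3% of their widths. Each of the 5 overlapped H3K4me1.

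Peaks remote from H3K27ac were few among the members and in the other classes without H3K27ac. Within 1000 kb of it lay 99.7% of isolated bivalent peaks, 99.6% of bivalent peaks in long domains and 98.5% of peaks with no H3K27 mark. The 5 members farthest from H3K27ac stood between 1199.46 and 3667.09 kb away, and 9 members lay beyond 1000 kb. The most remote, on chromosome 14 at 94288911 to 94290984, was 2074 bp wide with an H3K4me3 score of 1226.76 and held a weak H3K27me3 peak (score 60.02) and no H3K4me1. The others lay on chromosome 16 at 81200445 to 81201501, chromosome 5 at 84844699 to 84846976, chromosome 2 at 177853427 to 177854644 and chromosome 1 at 25886154 to 25886504. The peak on chromosome 5 had both marks at strength, with an H3K4me3 score of 2934.85 and H3K27me3 over 70.7% of its width. Of the 9 beyond 1000 kb, 4 overlapped H3K4me1.

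At the limits of the rule, the values on either side were close. The bivalent peak in the longest domain still counted as short, on chromosome 13 at 22097439 to 22099454, had 9.976 kb of H3K27me3 in its domain, and the nearest one left out, on chromosome 15 at 75561578 to 75562839, had 10.002 kb. The widest isolated bivalent peak, on chromosome 19 at 54118988 to 54122375, measured 3388 bp. The narrowest bivalent peak left out for width, on chromosome 6 at 31512228 to 31515623, measured 3396 bp.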

How the data were processed

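For each mark the authors deposited 1 list, from 1 library of EpiSC9 cells, that gives peak positions on mm9 and each peak's score. The submitters' processing notes name Bowtie 0.12.9, MACS 1.4 and Cufflinks with no role. How peaks were called (control, duplicate reads, threshold) is not given in the sources used here. No header states the scale of the score, which served only within a list. Read totals are unknown, and a deeper library gives more and wider peaks.

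Overlap was computed here with Python 3.11.15, numpy 2.4.6, pandas 2.3.3 and scipy 1.17.1, in code checked on simulated peaks, and plots with matplotlib 3.10.9. Shares carry 95% Wilson intervals. Distances run between edges, and positions are 1-based. A region on chromosome 11, 3000000 to 3110000, was not ranked by width, and its 30 H3K4me3 peaks were kept out of the comparison classes. Named peaks were the top 5 by H3K27me3 overlap, H3K27me3 score, H3K4me3 score and distance from H3K27ac, plus those at the limits of the rule. The members and measures were chosen with earlier results of these data known. Without an annotation of mm9, genes, gene lists, marker genes of feeder cells and sequences were not used here, so the share of signal from feeders is unknown.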

Additional observations from a re-analysis of the deposited data

How the results depend on the processing

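Each of 4 results was recomputed under 10 settings, and under 2 chosen after seeing the data (without the run on chromosome 9, and the widest member of each domain). The number of isolated bivalent peaks, 2857, was 1797 with H3K4me3 peaks at or above their median score and 4320 with long domains not excluded, and stayed within 1.5 times under the others. The share with H3K4me1, 94.5%, became 97.2% with the stronger H3K4me3 peaks, 92.9% with long domains and 95.3% with 1 member per domain. The distance to H3K27ac, 36.9 kb, became 45.9 kb with long domains. The covered share, 46.8%, depended most on the definition: 58.4% where H3K27me3 had to cover or lie in the peak by at least 50%, 50% for H3K27me3 at or above its median score, 38% for the stronger H3K4me3 peaks, 49.1% with joining within 1 kb, 39.1% with long domains from 5 kb, 66.6% with long domains, 37.5% with H3K4me3 merged within 1 kb and 38.8% with 1 member per domain. The cause was not tested. No paired analysis was possible because each mark had 1 library. Depth is unknown, so a missing H3K27ac or H3K4me1 peak may be one below the calling threshold.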
